A study of Mus musculus with 1824 samples.

Results

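The cells described here are caudal Cdx cells, the cells of a mouse single-cell RNA-seq series that read as caudal epiblast and as possible neuromesodermal progenitors. They were picked by 3 measured conditions among cells with at least 100000 reads: at least 2 of *Cdx1*, *Cdx2* and *Cdx4* at 20 CPM (reads of a gene per 1000000 reads of the cell) or more, at least 1 of *Nkx1-2*, *Hoxb9* and *Fgf17* at 20 CPM or more, and *Hand1* under 20 CPM. The rule kept 66 of 1649 such cells, and the whole series holds 1824 wells on 19 plates of 96. At embryonic day 7.5 (E7.5) 38 cells were members (3.97% of that stage's cells, exact 95% interval 2.83 to 5.42), and at E8.5 28 were (4.04%, 2.70 to 5.79). These intervals, like all others here, cover counting error only.

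Cells came from mouse embryos, were sorted singly into plates and were read by Smart-seq2, a full-length method without molecular barcodes. The E7.5 cells fill 11 plates, of which 4 are labelled with embryo 1, 2, 4 or 5, 6 are called lane plates and 1 a chimera plate, and the E8.5 cells fill 8 plates with no animal named. The labels give all embryos the strain CD1. By the methods, the embryos were chimaeras. Embryonic stem cells lacking Tet1, Tet2 and Tet3 and carrying a red fluorescent label were injected into C57BL/6J blastocysts that CD1 females carried. Host and injected cells thus share each embryo. The methods describe pooling of chimaeras before dissociation together with a sort into tubes, whereas 4 E7.5 plates are labelled with 1 embryo each. Whether embryos were pooled for the other plates is not stated. The methods also name staining for KDR and CD41, markers of blood and vessel precursors, before the sort into plates. No label gives the genotype or the gate of a single cell, so genotype, gate and plate cannot be told apart. As no animal is named at E8.5, its cells make up a single sample, and neither the stages nor members and other cells were compared by a test. Differences are log2 ratios of pooled CPM with 1 CPM added, with the plates as a technical spread.

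Background on the cells helps to read the genes. The caudal epiblast lies beside the streak at the tail end of the embryo, and in it live neuromesodermal progenitors, which feed both the spinal cord and the paraxial mesoderm as the trunk and tail grow. They are usually defined by the joint presence of *T* (Brachyury), a T-box factor of mesoderm, and *Sox2*, an SRY-box factor of neural and pluripotent cells. Wnt and FGF signals keep them in an undifferentiated state, *Cdx* homeobox genes relay these signals to the Hox clusters, *Tbx6* and *Msgn1* mark the exit to presomitic mesoderm, and *Sox1* and *Pax6* mark the exit to neural tissue. Retinoic acid from the somites opposes the state, and *Cyp26a1* breaks that acid down.

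Caudal genes were found throughout, and the pair that defines neuromesodermal progenitors in few members. Of the genes the rule used, *Cdx2* was at 20 CPM in all 38 and 28 members, *Cdx1* in 34 and 21, *Cdx4* in 17 and 23, *Nkx1-2* in 28 and 16, *Hoxb9* in 14 and 25 and *Fgf17* in 13 and 16. *T*, which the rule did not use, was at 20 CPM in 31 of 38 members at E7.5 (81.6%, 65.7 to 92.3) and 19 of 28 at E8.5 (67.9%, 47.6 to 84.1). *Sox2* reached that level in 5 and 7 members, and both genes together in 3 of 38 (7.89%, 1.66 to 21.4) and 4 of 28 (14.3%, 4.03 to 32.7). Among other cells, both genes were at 20 CPM in 32 at E7.5 (3.49%, 2.40 to 4.89) and 0 at E8.5 (0%, 0 to 0.553). At E7.5 most cells with both genes thus lay outside the rule. *Sox2* was at 20 CPM in 13.2% of members and 15.9% of other cells at E7.5, and in 25% and 2.71% at E8.5. As few members held both genes, the members are called caudal Cdx cells below, and the 7 members with both genes are described on their own.

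Members lay on few plates. At E7.5, 12 of the 38 came from lane plate 4 (14.5% of its cells), 5 from lane plate 5 (7.69%), 15 from lane plate 6 (18.1%), 3 from lane plate 2, and 1 each from embryos 1, 2 and 5. At E8.5, 12 came from plate 7 (13.6%), 14 from plate 8 (15.9%) and 2 from plate 2. The other 9 plates held none. The plot of shares by plate shows the split, and the 5 plates with at least 5 members, which hold 32 and 26 members, serve as the plate values below.

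**Figure D1:**
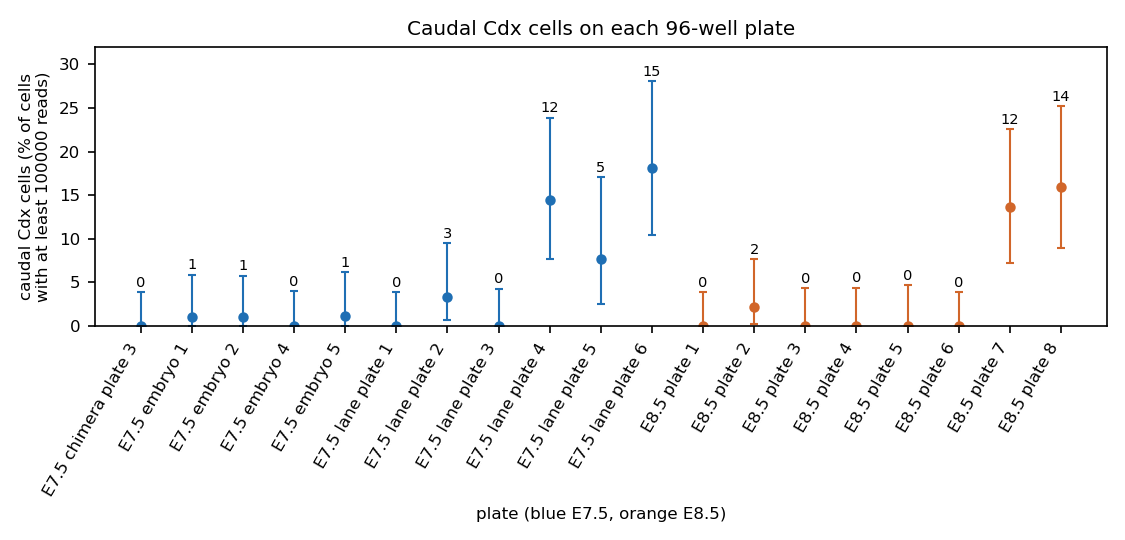
Share of caudal Cdx cells among the cells with at least 100000 reads on each plate (y axis, percent), E7.5 plates in blue and E8.5 plates in orange. Points are shares, bars exact 95% intervals and digits the number of members; 3 lane plates and 2 E8.5 plates lie above all others.

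The rule has thresholds, and the values beside them are given as a description. The 3 members nearest the limit had a second-highest *Cdx* level of 22.6, 24.5 and 25.6 CPM. The 3 cells that came closest without passing were stopped by a second *Cdx* gene at 16.9 and 16.5 CPM, and by 12.7 CPM as the highest of *Nkx1-2*, *Hoxb9* and *Fgf17*. *Hand1*, a factor of lateral and extraembryonic mesoderm, alone kept out 27 cells at E7.5 and 14 at E8.5. Members had a median of 522734 reads at E7.5 (132034 to 1549833) and 458597 at E8.5 (209525 to 1681781), and at 100000 reads a median of 6916 and 6835 genes, against 7036 and 6417 in other cells.

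Among E7.5 plates with at least 5 members, lane plate 4 stood apart, and this touches every E7.5 value that follows. Its 12 members carried posterior Hox genes, whereas those of lane plates 5 and 6 carried pluripotency and presomitic genes. A Hox gene of paralogue group 9 or higher was at 20 CPM in 11 of 12 members on lane plate 4, 0 of 5 on lane plate 5 and 1 of 15 on lane plate 6, and in 11 of 12 and 12 of 14 on E8.5 plates 7 and 8. The rule gene *Hoxb9* belongs to group 9 and is counted here, so these counts are a description only. Plate levels of *Hoxa7* and *Hoxc9*, which the rule did not use, are given further on. *Pou5f1*, the pluripotency factor OCT4, was at 20 CPM in 4 of 12, 5 of 5 and 15 of 15 members on lane plates 4, 5 and 6, and in 1 of 12 and 2 of 14 on the E8.5 plates. *Spry2*, an inhibitor of FGF signalling, instead kept all E7.5 plates together, at 20 CPM in 12 of 12, 5 of 5 and 13 of 15 members against 0 of 12 and 2 of 14 at E8.5. Other cells of lane plate 4 were also lower in *Pou5f1*, at 20 CPM in 33.8% of them against 78.3% and 83.8% on lane plates 5 and 6. That share was 1.08%, 4.65% and 15.5% on lane plates 1, 2 and 3, so lane plate 4 was not the lowest. It ran from 26.4% (embryo 4) to 93.5% (embryo 2) on the embryo and chimera plates. The 3 members of lane plate 2 resembled lane plate 4 here, with *Pou5f1* at 20 CPM in 0 and the rule gene *Hoxb9* without it in 2. The 1 member each of embryos 1, 2 and 5 held *Pou5f1* without *Hoxb9*. The labels do not say how the lane plates differ.

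The cell-by-cell plot shows these levels. Of the 66 members, 24 held *Pou5f1* without *Hoxb9*, 32 *Hoxb9* without *Pou5f1* and 7 both; *Hoxb9* was part of the rule and these counts pool plates and stages, so nothing is read from them. On lane plate 4, 3 of the 4 members with *Pou5f1* had *Hoxb9*.

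**Figure D2:**
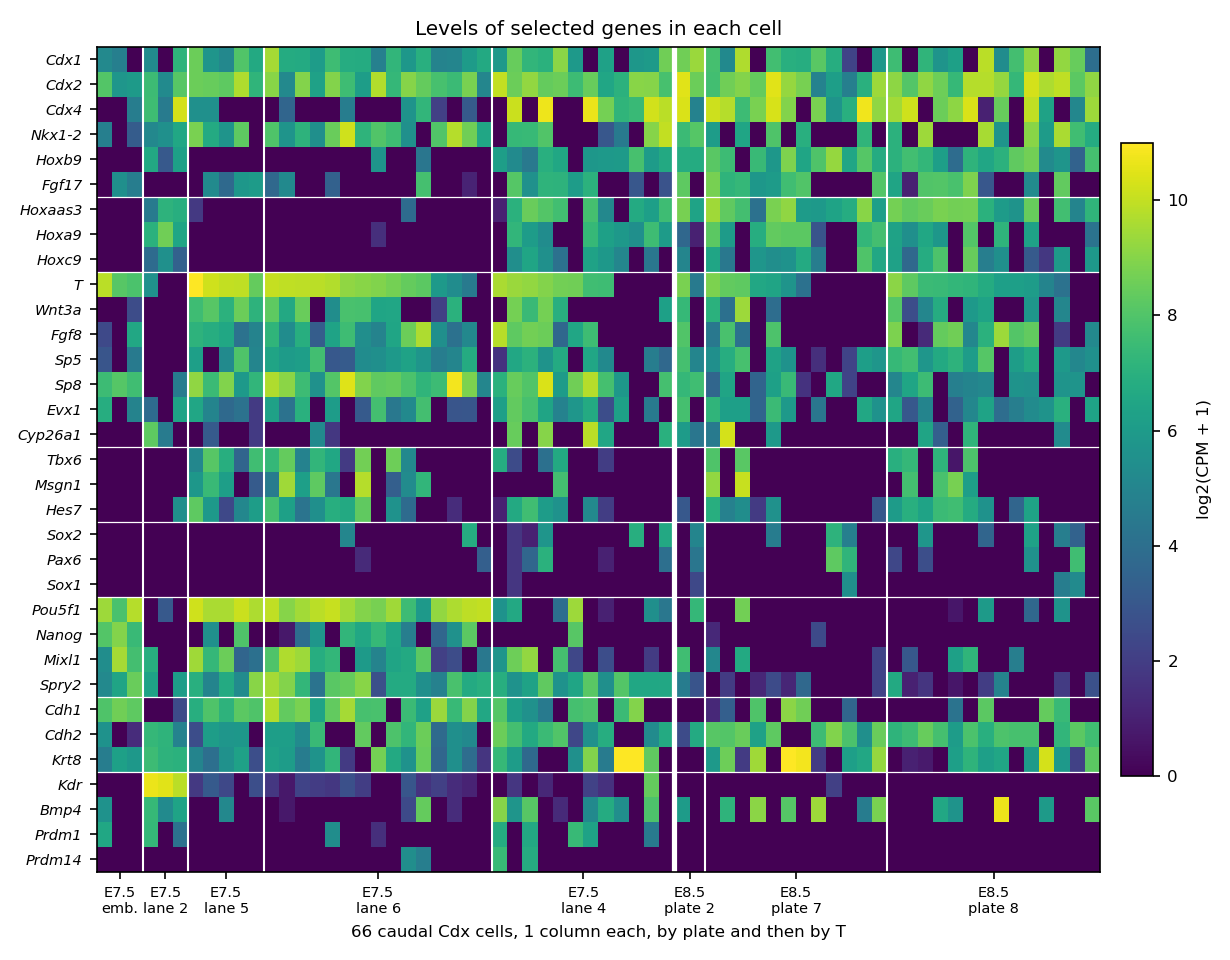
Levels of selected genes (rows) in each of the 66 caudal Cdx cells (columns, grouped by plate and ordered by *T* within a plate), as log2(CPM + 1) in colour. The thick white line parts E7.5 from E8.5; *Pou5f1* is found in all columns of lane plates 5 and 6, and *Hoxa9* and *Hoxc9* mainly in those of lane plate 4 and of E8.5.

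Caudal and tail bud genes were next set against the other cells of the same stage. Of the 20 genes of this list, none of them used by the rule, all 20 had at least 10 CPM in either group at E7.5, and 15 were higher in members by a log2 ratio of 1 or more and 1 was lower (median 1.71). Over all 9856 genes with that level, 6.26% were higher and 7.45% lower (median −0.01). At E8.5, 18 of 19 were higher and 0 lower (median 3.704), against 10.3% and 13.1% of 10078 genes (median 0.07). Since the members were picked by other caudal genes of the same cells, these counts describe the rule's neighbours and are no test.

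*T* had 462.8 CPM in E7.5 members (95% counting interval 453.9 to 471.8) and 83.6 in other E7.5 cells, and 129.1 and 6.14 CPM at E8.5. Across cells it ran from 0 through a median of 397.3 to 2156 CPM at E7.5, and from 0 through 72.1 to 546.7 at E8.5. Lane plates 4, 5 and 6 had 327.5, 1178 and 537.9 CPM and plates 7 and 8 had 128.7 and 126.7, so no E8.5 plate reached the lowest E7.5 plate. Within each plate the members lay above the other cells, by log2 ratios between 1.55 and 6.29.

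*Wnt3a*, the Wnt ligand of the tail bud, ranked first at E7.5 among the genes named by their ratio. It had 95.6 CPM in E7.5 members and 1.53 in other cells (log2 ratio 5.26), and 39.5 and 2.63 at E8.5 (3.48). It was at 20 CPM in 19 of 38 and 10 of 28 members, and 18 and 9 of these also held *T*. *Wnt5b*, another Wnt ligand, had 164.6 and 242.1 CPM in members against 23.9 and 12.9. *Wnt8a*, a streak Wnt, had 53.4 and 50.6 CPM against 4.66 and 1.08, and at E7.5 it came from lane plates 5 and 6 (72.3 and 99.1 CPM) more than from lane plate 4 (6.78). *Wnt3a* and *Wnt5b* thus lay above the other cells on every one of the 5 plates.

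Genes that answer Wnt and FGF were also higher. *Sp5*, a zinc finger gene switched on by Wnt, had 49.4 and 81.95 CPM in members against 22.7 and 3.82 in other cells. *Sp8*, its relative, had 381.7 and 63.4 against 28.8 and 2.52, and *Evx1*, a homeobox gene of the posterior streak, 61.8 and 50.2 against 20.9 and 2.93. *Fgf8*, the main FGF ligand of the tail, had 139.8 and 99.5 against 38.7 and 6.25. *Epha5*, an ephrin receptor, had 83.6 CPM in E8.5 members and 1.30 in other cells, and at E7.5 it had 71.2 CPM on lane plate 4 but 0 and 0.708 on lane plates 5 and 6. Only *Fgf3* was lower in E7.5 members (27.8 against 83.4 CPM).

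*Cyp26a1* stood out from the list by its concentration in few cells. It had 77.9 CPM in E7.5 members and 90.5 at E8.5, but only 8 and 7 cells reached 20 CPM, and 1 cell of plate 7 held 82.8% of all its E8.5 member reads. On the E7.5 plates it had 180.4 CPM on lane plate 4 against 1.51 and 1.42 on lane plates 5 and 6. Its highest levels were 928.1 CPM in an E7.5 member and 1246 CPM in an E8.5 member.

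The 250 bases upstream of the start of 3 of these genes are shown, because *T*, *Evx1* and *Sp5* were higher in members at both stages and their windows hold one of the searched motifs. Sequences are RefSeq promoters of build GRCm38.p6, read 5′ to 3′ on the gene's strand. No GENCODE exon of that strand overlaps the printed bases, and exons of the other strand were not checked. Capitals mark CDX motifs (TTTATGG or TTTATTG) and TCF/LEF motifs (CTTTGAT or CTTTGTT), each searched on both strands.
T, chr17:8434173-8434422, + strand: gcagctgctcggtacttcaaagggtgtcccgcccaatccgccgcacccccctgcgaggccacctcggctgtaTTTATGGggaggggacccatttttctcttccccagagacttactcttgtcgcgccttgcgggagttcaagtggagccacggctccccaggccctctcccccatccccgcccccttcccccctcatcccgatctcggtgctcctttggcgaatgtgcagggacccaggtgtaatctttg
Evx1, chr6:52313248-52313497, + strand: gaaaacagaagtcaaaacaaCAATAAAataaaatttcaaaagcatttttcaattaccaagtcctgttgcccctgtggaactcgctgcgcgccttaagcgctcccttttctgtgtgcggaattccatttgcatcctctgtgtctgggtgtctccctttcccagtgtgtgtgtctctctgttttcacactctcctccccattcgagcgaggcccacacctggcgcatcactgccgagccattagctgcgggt
Sp5, chr2:70474673-70474922, + strand: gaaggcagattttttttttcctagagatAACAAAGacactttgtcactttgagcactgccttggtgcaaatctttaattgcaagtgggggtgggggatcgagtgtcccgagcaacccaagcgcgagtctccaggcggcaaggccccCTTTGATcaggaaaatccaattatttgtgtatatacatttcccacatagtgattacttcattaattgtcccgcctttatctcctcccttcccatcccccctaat
The windows of *T* and *Evx1* each hold 1 CDX motif, and that of *Sp5* holds 2 TCF/LEF motifs, the nearer ending 98 bases before the start. Among the 16 caudal genes with a window, 4 hold a CDX motif (25%) and 2 a TCF/LEF motif (12.5%), against 7.55% and 9.21% of 27025 genes with a window. Neither motif is in the windows of *Cdx2*, *Cdx4* or *Nkx1-2*. A match of letters is not evidence of binding, and the windows leave out distant enhancers.

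The joint level of *T* and *Sox2* was then read cell by cell, since it is what defines neuromesodermal progenitors. The 7 members with both genes at 20 CPM were spread over 5 plates. At E7.5 they were a cell of lane plate 4 with 500.4 CPM *T* and 52.9 CPM *Sox2*, and 2 cells of lane plate 6 with 582.6 and 32.2 CPM and with 22.1 and 111.7 CPM. At E8.5 they had *T* and *Sox2* at 21.8 and 31.2 CPM on plate 2, 84.3 and 23.4 on plate 7, and 179.1 and 53.97, and 66.1 and 77.8, on plate 8. All 7 also held *Nkx1-2*, from 248.2 to 1165 CPM, but this is one of the genes the rule used. Most members had *T* without *Sox2* (28 of 38 and 15 of 28), 2 and 3 had *Sox2* without *T*, and 5 and 6 had neither.

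These counts also moved with depth. With any read counted, *Sox2* was found in 7 and 9 members and *T* with *Sox2* in 5 and 6, and with each cell thinned to 100000 reads the joint count was 3 and 5. The gene was low where found: pooled over members it had 14.3 and 17.2 CPM, with at most 116.6 and 138.6 in a cell. The neural-gene cells described further on, which were picked by it, had 46.4 and 73.7 CPM.

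The genes of the 2 exits were not found together at 20 CPM: 0 of 38 and 0 of 28 members held *Tbx6* or *Msgn1* with *Sox1* or *Pax6* (exact 95% intervals up to 9.25% and 12.3%). *Tbx6* or *Msgn1* was at 20 CPM in 15 of 38 and 7 of 28 members, and all 22 had *T* and none had *Sox2* at that level. *Sox1* or *Pax6* was at 20 CPM in 1 and 5 members, with *Sox2* in 1 and 4 of them and *T* in 1 and 1.

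**Figure D3:**
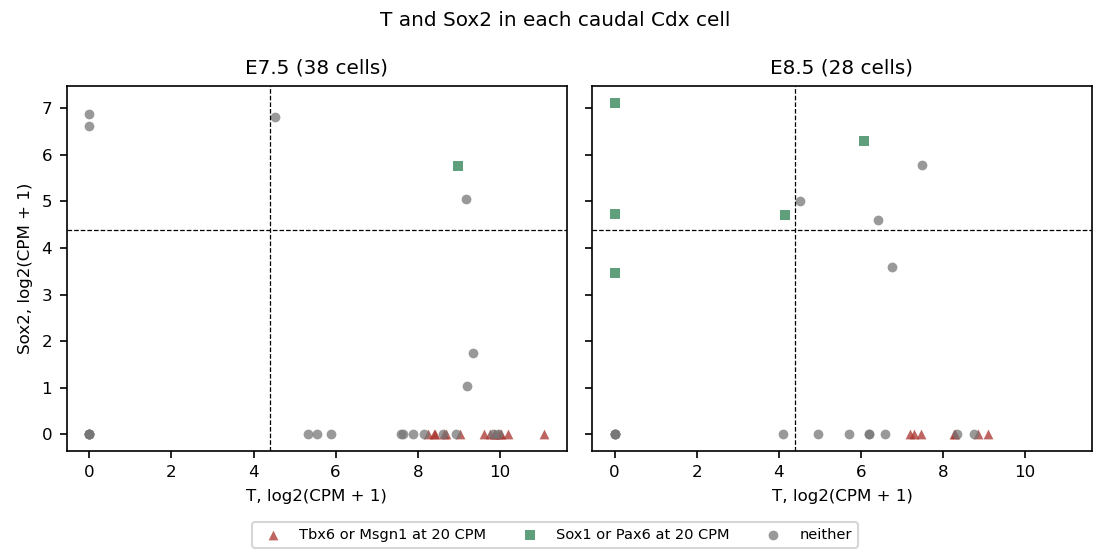
*T* (x axis) against *Sox2* (y axis) in each caudal Cdx cell at E7.5 and E8.5, both as log2(CPM + 1), with dashed lines at 20 CPM. Triangles are cells with *Tbx6* or *Msgn1*, squares those with *Sox1* or *Pax6*; the 7 cells beyond both lines hold both genes, and no triangle lies above the horizontal line.

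Presomitic genes were higher in members at both stages. Of the 9 genes of this list with enough reads, 8 were higher and 0 lower at E7.5 (median log2 ratio 3.02), and 8 of 9 were higher and 0 lower at E8.5 (3.79). The shares of all genes were 6.26% higher and 7.45% lower at E7.5, and 10.3% and 13.1% at E8.5. *Hes7*, the oscillating repressor of the segmentation clock, had 53.04 CPM in E7.5 members against 0.439 in other cells, and 46.8 against 0.971 at E8.5, at 20 CPM in 17 and 12 members. *Tbx6* had 71.9 and 30.8 CPM against 3.19 and 0.869, and *Msgn1* 95.3 and 99.5 against 8.77 and 5.11. The Notch ligands *Dll1* and *Dll3* had 110.5 and 57.3 CPM at E7.5 and 101.4 and 191.3 at E8.5, against 12.7 and 40.7, and 6.43 and 6.42, in other cells. Genes of formed somites stayed low: *Meox1* and *Tcf15* had at most 3.02 and 1.32 CPM in members of either stage. Thus early presomitic genes were higher, and the 2 somite genes were near their floor.

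These presomitic levels differed among plates. *Tbx6* had 117.5 and 126.6 CPM on lane plates 5 and 6, 23.4 on lane plate 4 and 38.4 and 29.6 on plates 7 and 8. *Msgn1* reached 20 CPM in 1 of 12 members on lane plate 4, 3 of 5 on lane plate 5 and 7 of 15 on lane plate 6. *Aldh1a2*, which makes retinoic acid in paraxial mesoderm, had 10.3, 210.2 and 131.3 CPM on lane plates 4, 5 and 6, and 79.2 and 8.10 on plates 7 and 8.

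Most neural genes were sparse. Only 5 of the 16 genes of the list had 10 CPM at each stage, and their median log2 ratio at E7.5 turned on 1 plate, from 1.38 to −0.52 without lane plate 4. *Pax6* was at 20 CPM in 1 and 4 members, and 1 cell held 68.2% of its E8.5 reads. *Otx2*, of the forebrain and anterior epiblast, was lower (11.6 against 71.1 CPM) and was at 0 in E8.5 members.

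The Hox clusters code position along the body, with low paralogue numbers used early and anteriorly and high numbers later and posteriorly. At E7.5, 13 of 14 Hox genes with enough reads were higher in members and 0 lower, and at E8.5 22 of 22 were higher. Among all genes 6.26% and 10.3% were higher at the 2 stages. Only 3 of the 13 at E7.5 and 17 of the 22 at E8.5 lay above the other cells on every plate with at least 5 members. For all genes that share was not counted. Without lane plate 4 the E7.5 result narrowed: *Hoxc9* went from a log2 ratio of 2.59 to −0.02. A member held a median of 3 Hox genes at 20 CPM at E7.5 (0 to 19) and 12.5 at E8.5 (4 to 22), against 0 in other cells of both stages. Paralogue group 9 or higher, which includes the rule gene *Hoxb9*, was reached by 15 of 38 and 25 of 28 members, group 10 or higher by 4 and 6.

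Set out by plate, the Hox levels split the E7.5 plates. Levels between genes are compared per length, as RPKM, the CPM divided by the gene's exon length in kilobases. Groups 1 to 3 summed to 250.3 RPKM in members of lane plates 5 and 6, 83.7 on lane plate 4, and 117.97 and 238.1 on plates 7 and 8. Groups 4 to 8 summed to 14.4 RPKM on lane plates 5 and 6, against 181.7 on lane plate 4 and 209.4 and 165.2 on plates 7 and 8. Group 9, with the rule gene *Hoxb9* among its genes, summed to 2.32, 65.97, 158.7 and 78.1 RPKM in the same order. Groups 10 to 13 were at 3.07, 0.423 and 1.54 RPKM on lane plates 5 and 6, lane plate 4 and plate 8, and at 68.3 on plate 7. Members of lane plates 5 and 6 thus carried mainly anterior Hox genes, those of lane plate 4 and plate 8 reached group 9, and plate 7 went on to group 10.

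*Hoxb1*, the earliest HoxB gene, had 700.6 and 423.6 CPM on lane plates 5 and 6 and 73.9 on lane plate 4, and 105.6 and 391.2 on plates 7 and 8. *Hoxa7* had 112.4, 135.2 and 38.8 CPM on lane plate 4, plate 7 and plate 8, and was at 0 in the 20 members of lane plates 5 and 6. *Hoxc9* had 35.6, 45.6 and 52.3 CPM there and was also at 0 on lane plates 5 and 6. *Hoxaas3*, an antisense RNA of the HoxA cluster, had 144.96, 251.1 and 256.3 CPM against 0.753 and 0.607; whether counting used strand is not stated, so reads of overlapping HoxA transcripts cannot be told apart from it. *Hoxa10* was at 20 CPM in 4 members of plate 7 with 124.4 CPM, against 2.18 on plate 8, and *Hoxc10* had 38.3 and 1.66 CPM. Hox genes past group 10 had pooled levels at or under 2.96 CPM in members, and 2 E7.5 members and 1 E8.5 member held one of them (*Hoxa13* or *Hoxd13*) at 20 CPM.

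**Figure D4:**
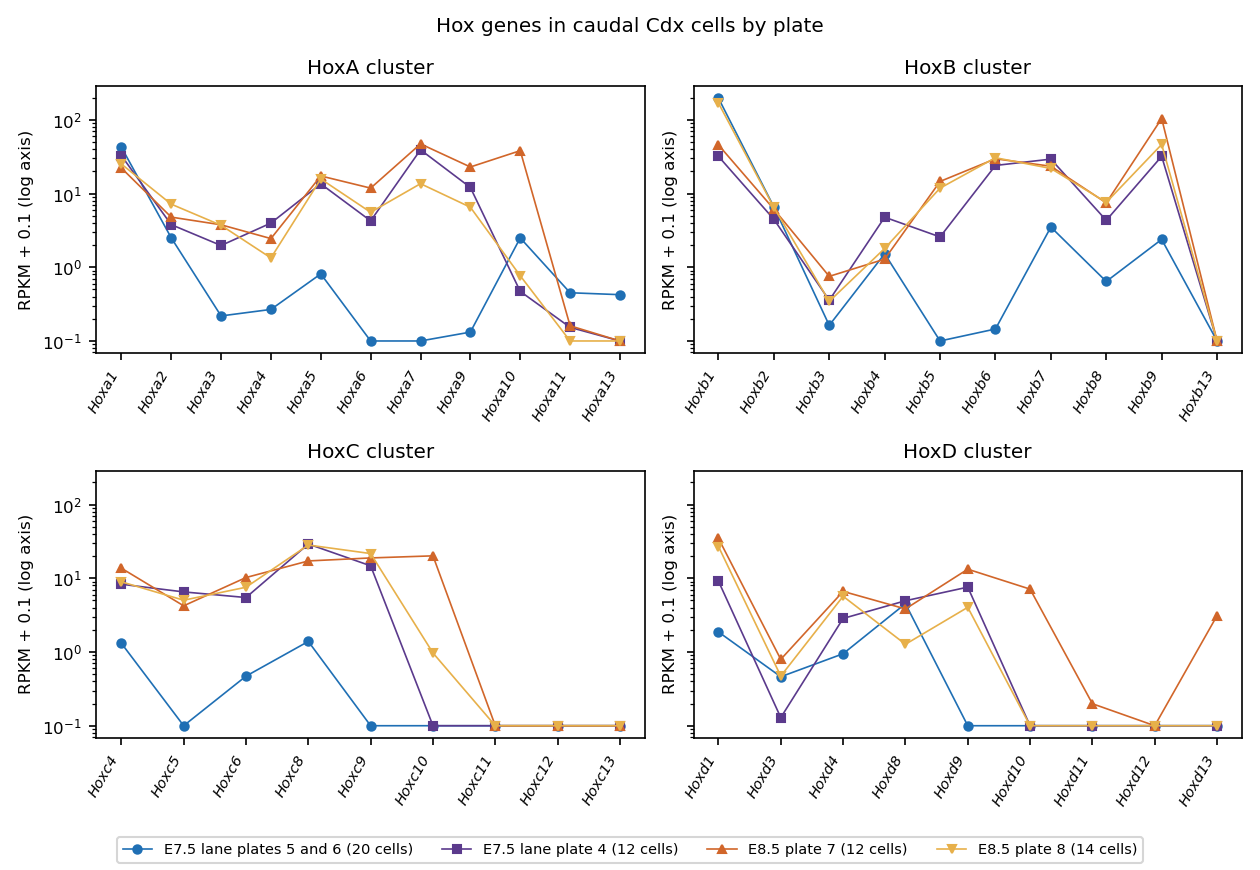
Hox genes of the 4 clusters in paralogue order (x axis) in members of lane plates 5 and 6 together, lane plate 4, and E8.5 plates 7 and 8, as RPKM + 0.1 on a log axis. At most genes of groups 5 to 9 lane plates 5 and 6 lie below the other 3 curves, and plate 7 alone stays high at *Hoxa10* and *Hoxc10*.

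Of the 38 Hox genes apart from *Hoxb9*, 23 had enough reads to compare members of the 2 stages. At E8.5, 14 were higher by a log2 ratio of 1 or more and 1 lower (median 1.19), and for 11 of the 14 the E8.5 plates did not overlap the E7.5 plates. Over all genes 11.6% were higher and 7.56% were higher without overlap (median 0.10). Against E7.5 members other than those of lane plate 4, the median was 2.36, and against lane plate 4 alone 7 of 24 were higher and 1 lower (median 0.33, with 14.7% and 16.4% of all genes). Lane plate 4 over lane plates 5 and 6 gave 15 of 19 higher and 1 lower (median 2.88, with 18.5% and 12.3% of all genes). The comparisons share cells, so their counts stand side by side only, and that with lane plate 4 was set up after its values were seen.

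Wnt pathway genes were higher in 11 of 18 cases at E7.5 with 4 lower, and in 16 of 18 at E8.5 with 0 lower. Among all genes 6.26% were higher and 7.45% lower at E7.5, and 10.3% and 13.1% at E8.5. *Fzd10*, a Wnt receptor, had 43.02 and 45.9 CPM in members against 3.77 and 9.60, and *Notum*, a secreted Wnt inhibitor, 21.3 and 16.7 against 0.779 and 2.33. The feedback genes *Axin2* and *Nkd1* had 51.5 and 76.3 CPM at E7.5 and 47.7 and 90.7 at E8.5, against 20.9 and 31.9, and 9.81 and 20.2, in other cells. *Tcf7l1*, *Tcf7l2*, *Dkk1* and *Lgr5* were the 4 lower genes at E7.5, and *Lgr5* had 0.0898 CPM in E7.5 members and 18.7 at E8.5. *Dkk1*, a Wnt inhibitor of the head and anterior streak, had 11.1 and 81.6 CPM. Between stages 3 of 19 Wnt genes were higher and 2 lower, near the 11.6% and 12.7% of all genes.

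In the FGF list 6 of 16 genes were higher and 4 lower at E7.5, and 9 of 15 higher and 1 lower at E8.5. The shares of all genes were 6.26% and 7.45% at E7.5, and 10.3% and 13.1% at E8.5. *Etv4*, a target of FGF, had 63.1 and 92.7 CPM in members against 13.5 and 4.30, and *Spry4* 92.3 and 64.1 against 23.2 and 6.15. *Spry2* differed by stage in members and other cells alike: it had 190.8 CPM in E7.5 members and 80.2 in other E7.5 cells, and 4.33 and 3.96 at E8.5. It was at 20 CPM in 35 of 38 and 3 of 28 members. *Fgf4*, a streak ligand, had 15.9 and 10.7 CPM, with 86.2% of the E8.5 reads in 1 cell.

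Retinoic acid genes were higher in 7 of 12 cases at E7.5 with 0 lower, and in 6 of 13 at E8.5 with 2 lower. For this list and the Notch list, the shares of all genes were 6.26% higher and 7.45% lower at E7.5. At E8.5 they were 10.3% and 13.1%. *Rarg*, the retinoic acid receptor of the caudal embryo, had 58.02 and 70.2 CPM in members against 13.7 and 13.3. *Crabp2*, which carries retinoic acid to the nucleus, was higher at E8.5 in members and other cells, with 107.5 and 672.6 CPM in members and 31.8 and 135.7 in the rest. Its plate values were 131.8, 148.4 and 108.7 at E7.5 and 568.7 and 705.6 at E8.5. The Notch list gave 5 of 11 and 7 of 10 genes higher and 0 lower; besides the ligands, *Notch1*, a receptor, had 74.1 and 188.3 CPM against 68.9 and 71.4.

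Most primed pluripotency genes were lower in E8.5 than in E7.5 members, less so beside lane plate 4. At E7.5 members had 2 of 10 genes of this list higher and 7 lower than other cells (median −1.64). At E8.5 3 of 4 were higher (*Pou5f1*, *Pim2* and *Slc7a3*) and 1 lower (*Dppa4*), with a median of 1.48. The shares of all genes were 6.26% higher and 7.45% lower at E7.5, and 10.3% and 13.1% at E8.5. From E7.5 to E8.5 members 0 of 9 were higher and 7 lower (median −3.66), while 12.7% of 9884 genes were lower. Beside lane plate 4 alone 0 of 5 were higher and 2 lower, *L1td1* and *Dppa4* (median −0.53, with 16.4% of all genes lower). In other cells 0 of 10 were higher and 9 lower at E8.5 (median −4.17, beside 0.07 over all genes compared). *Pou5f1* had 404.02 CPM in E7.5 members against 191.8 in other cells, and 24.03 at E8.5 against 1.69. *Nanog*, its partner, had 56.6 and 0.329 CPM in members. The 2 were together at 20 CPM in 14 of 38 members at E7.5 and 0 of 28 at E8.5. *Utf1*, *Fgf5* and *Tdgf1*, of the anterior or earlier epiblast, were instead lower in E7.5 members (6.78, 12.3 and 75.2 CPM) than in other cells (75.9, 61.2 and 304.03). At E7.5 *Pou5f1* had 953.7 and 657.1 CPM on lane plates 5 and 6 and 35.2 on lane plate 4, against 20.5 and 14.2 CPM on plates 7 and 8.

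Most primitive streak genes were also lower at E8.5. Of the 10 genes compared between stages in members, 1 was higher (*Lhx1*) and 7 were lower at E8.5, beside 11.6% and 12.7% of all genes. The median was −2.57, beside 0.098 over all genes compared. In other cells 0 of 11 were higher and 11 lower (median −3.97, beside 0.07 over all genes compared). Beside other E7.5 cells, 3 of 11 were higher in members and 4 lower (median −0.31), against 6.26% and 7.45% of all genes. Beside other E8.5 cells, 5 of 6 were higher in members and 0 lower (median 3.15), against 10.3% and 13.1% of all genes. *Mixl1*, a homeobox gene of the streak, had 187.3 and 17.9 CPM, with 113.2, 296.04 and 231.8 on the lane plates and 8.46 and 18.99 on plates 7 and 8. *Mesp1*, of nascent mesoderm, had 42.8 CPM at E7.5 and 0 reads at E8.5, and *Eomes*, of the early streak, 27.9 and 0. *Eomes* was at 1.09, 3.77 and 1.21 CPM on the lane plates, and 2 cells, of embryos 1 and 5, had 562.9 and 561.9 CPM. *Evx1* and *Fgf8*, of the posterior streak, differed by less than a log2 ratio of 1 (−0.29 and −0.49).

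Of 9 DNA methylation enzymes, the study's subject, 0 were higher and 2 lower in E7.5 members than in other cells, beside 6.26% and 7.45% of all genes. At E8.5 0 of 8 were higher or lower, beside 10.3% and 13.1%, and with so few genes these counts are not set apart from the rest. *Tet1*, *Tet2* and *Tet3*, which oxidise methylated cytosine, had 98.2, 7.59 and 55.5 CPM in E7.5 members and 69.99, 23.4 and 42.8 at E8.5. The 2 lower genes were *Tet2* and *Dnmt3l*, a cofactor of the de novo methyltransferases, which had 22.3 and 11.3 CPM in other E7.5 cells, and *Dnmt3l* 0.853 in members. *Dnmt3b*, which adds methyl groups, had 538.3 CPM against 734.7 in other cells at E7.5 and 227.3 against 156.7 at E8.5. Its plate values were 169.5 on lane plate 4, 847.4 and 741.4 on lane plates 5 and 6, and 143.6 and 268.5 on plates 7 and 8. Reads per gene do not give a cell's genotype, and *Tet* levels of host and injected cells were not told apart.

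Cadherins differed in how many members held them. *Cdh1*, the epithelial cadherin, was at 20 CPM in 30 of 38 members at E7.5 and 6 of 28 at E8.5, and *Cdh2*, the mesenchymal and neural cadherin, in 26 and 24. At E7.5 18 members held both, and at E8.5 3 did. *Cdh1* had 136.7, 198.1 and 344.2 CPM on the lane plates and 115.8 and 74.3 on plates 7 and 8, and *Cdh2* 132.5, 25.6 and 92.3, and 216.7 and 177.6. By cell both cadherins overlapped between the stages. On the 5 plates with at least 5 members *Cdh1* was lower and *Cdh2* higher at E8.5, but *Cdh2* did not reach a log2 ratio of 1. Of 12 epithelial and mesenchymal genes compared between stages, 0 were higher and 2 lower, beside 11.6% and 12.7% of all genes. On lane plate 2 the E7.5 members were unlike those of the other lane plates, with *Cdh1* in 0 of 3 and *Cdh2* in 3 of 3.

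Markers of other cell types were read in every member. Among all genes 7.45% were lower in members at E7.5 and 13.1% at E8.5. All 7 blood markers were lower in members at both stages, and the sum of the 7 had a median of 2.35 and 0 CPM per cell, with maxima of 164.4 and 256.1, against pooled sums of 7071 and 41572 CPM in other cells and 13.5 and 21.5 in members. Of the 6 endothelial markers 5 were lower at E7.5 and all 6 were at E8.5. They summed to a median of 5.47 CPM at E7.5 and 0 at E8.5, with maxima of 2205 and 126.7. All 5 visceral endoderm markers were lower at both stages, with 3 of them at 0 in E7.5 members. The 6 surface ectoderm markers, which include the keratin *Krt8*, summed to 393.9 and 528.8 CPM in pooled members against 536.8 and 622.7 in other cells, with medians per member of 109.96 and 79.9 CPM and maxima of 3571 and 4321.

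The remaining lists had few genes with enough reads, so their counts are not set apart from those of all genes. Among all genes 6.26% were higher and 7.45% lower at E7.5, and 10.3% and 13.1% at E8.5. Cardiac and lateral mesoderm markers had 1 higher and 2 lower of 4 at E7.5 and 2 higher and 3 lower of 6 at E8.5. Allantois markers had 0 higher and 2 lower of 3 at E7.5 and 1 higher and 3 lower of 4 at E8.5. Definitive endoderm markers had 1 higher and 2 lower of 5 at E7.5 and 2 higher and 1 lower of 4 at E8.5. Trophoblast markers had 0 higher and 3 lower of 4 at E7.5 and 1 higher and 1 lower of 2 at E8.5. Node markers had 1 higher and 0 lower of 1 at E7.5 and 1 higher and 0 lower of 1 at E8.5. Germ cell markers had 3 higher and 0 lower of 3 at E7.5 and 0 higher and 0 lower of 1 at E8.5. Surface ectoderm markers had 1 higher and 1 lower of 4 at E7.5 and 0 higher and 0 lower of 2 at E8.5. Epithelial and mesenchymal genes had 0 higher and 1 lower of 11 at E7.5 and 4 higher and 2 lower of 12 at E8.5.

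A few members carried strong markers of another kind beside the caudal genes, and all were kept. *Kdr*, the VEGF receptor of blood and vessel precursors, was at 20 CPM in 4 members, all E7.5 and all with *Bmp4*: the 3 of lane plate 2 had 1619, 1452 and 942.2 CPM and 1 of lane plate 4 had 332.3. *Krt8* was highest in 5 members, with 2357 and 2302 CPM in 2 of lane plate 4, 1799 and 2382 in 2 of plate 7, and 1245 in 1 of plate 8 that also had 265.8 CPM of the endoderm factor *Foxa2*. *Bmp4*, a ligand of the posterior mesoderm, was at 20 CPM in 13 and 12 members. *Prdm1* and *Prdm14*, which together mark the germ line, were both at 20 CPM in 2 members of lane plate 4, with *T* at 783.1 and 589.1 CPM, and *Dppa3* was at 20 CPM in 2. *Sox17*, of endoderm and of other lineages, had 1033.1 CPM in 1 of these cells. How far such cells shape the pooled levels is given by the share of the top cell: 1 member held 96.3% of the E8.5 reads of *Trh*, which ranked highest among the genes named at E8.5, so that rank rests on 1 cell.

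The most alike cells outside the rule were taken by 3 gene rules and set beside the members. Cells with 2 of *Tbx6*, *Msgn1*, *Meox1* and *Tcf15* numbered 18 and 9 at the 2 stages and had *T* at 421.001 and 241.3 CPM against 462.8 and 129.1 in members. They had *Cdx2* at 91.96 and 189.9 CPM against 341.3 and 485.6, *Nkx1-2* at 1.28 and 1.05 against 188.4 and 201.6, and *Sp8* at 80.8 and 1.57 against 381.7 and 63.4. At E8.5 their *Hoxa9* and *Hoxc9* had 58.7 and 39.6 CPM against 69.6 and 46.4, and at E7.5 *Hoxa9* and *Hoxc9* were at 0 in them. The log2 ratio of members over these cells was 2.23 and 4.65 for *Sp8*, and 0.14 and −0.90 for *T*. Several genes that were higher in members than in all other cells were near the members' level or above it in these. *Evx1* had 60.5 and 55.7 CPM in them against 61.8 and 50.2 in members, and *Hoxb1* 287.6 and 165.7 against 259.1 and 260.1. At E7.5 *Sp5* and *Dll3* had 87.7 and 242.4 CPM against 49.4 and 57.3. At E8.5 *Wnt3a*, *Wnt5b* and *Fgf8* had 68.4, 321.002 and 96.2 against 39.5, 242.1 and 99.5. *Nkx1-2* and *Cdx2* were part of the rule, so their differences are no finding.

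Cells with *Sox2*, with *Sox1* or *Pax6*, and with fewer than 2 *Cdx* genes numbered 26 and 7, and had *T* at 0.745 and 0.212 CPM and *Hes7* at 0. Their *Sp8* had 171.3 and 35.3 CPM, above the other cells of their stage, and their *Hoxb1* 10.5 and 40.8 against 259.1 and 260.1 in members. The E7.5 cells with *Pou5f1* and *Utf1*, *Fgf5* or *Slc7a3* but no *T* had *Pou5f1* at 636.5 CPM and *Spry2* at 140.1, against 404.02 and 190.8 in members, and *Fgf8* at 40.3 against 139.8. They had *Hoxb1* at 4.49 CPM and *Hoxaas3* at 0.01. None of these groups was picked by *Hoxb1* or *Spry2*.

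Genes named by their rank complete the account. Highest over other cells at E7.5 were *Wnt3a*, *Hes7*, *Hoxaas3*, *Gal*, *Tbx6*, *Ngfr*, *Foxb1*, *Sp8*, *Notum* and *Hoxb1*, with log2 ratios from 5.26 down to 3.33. *Gal*, a neuropeptide, had 163.5 and 75.3 CPM on lane plates 5 and 6 and 1.82 on lane plate 4, and *Ngfr*, a neurotrophin receptor, 80.3 on lane plate 4 and 24.1 and 7.58 on the others. *Foxb1*, a forkhead gene of the caudal neural plate, was at 20 CPM in 20 and 18 members with 38.3 and 67.1 CPM. Highest at E8.5 were *Trh*, *Hoxaas3*, *Epha5*, *Dll3*, *Wnt8a*, *Hes7*, *Evx1os*, *Gabrg1*, *Sp8* and *T*, from 6.32 to 4.19. The lowest included the embryonic globins, with *Hba-x* at −8.77 at E7.5 and *Hbb-bh1* at −11.03 at E8.5, the visceral endoderm gene *Ttr* at −6.74 and −8.00, and at E7.5 *Cer1*, an inhibitor of Nodal and Wnt of the anterior endoderm, at −6.30.

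Between stages, the genes named for their high ratio were at low levels at E8.5. *Gprc5a*, an epithelial gene, had 35.7 CPM at E8.5 and 1.39 at E7.5, at 20 CPM in 10 of 28 members. *S1pr3*, *Ndnf* and *Igfbp5* had 38.8, 28.96 and 44.8 CPM, with 51.3%, 31.4% and 51.2% of it in 1 cell. *AC121824.2*, a transcript of unknown function, was instead spread over cells, at 20 CPM in 26 of 28 members and 3 of 38, with 45.9 and 2.83 CPM; other cells had 35.3 and 12.4. Among genes named as lower, *Spry2*, *Rpl6l* and *Rps3a2* were also lower in other E8.5 cells, and *Rpl6l* had 60.3 and 0.823 CPM in members and 33.1 and 0.983 in the rest. *Rpl6l* and *Rps3a2* resemble ribosomal protein genes whose reads could be split among copies, so their values are uncertain.

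**Figure D5:**
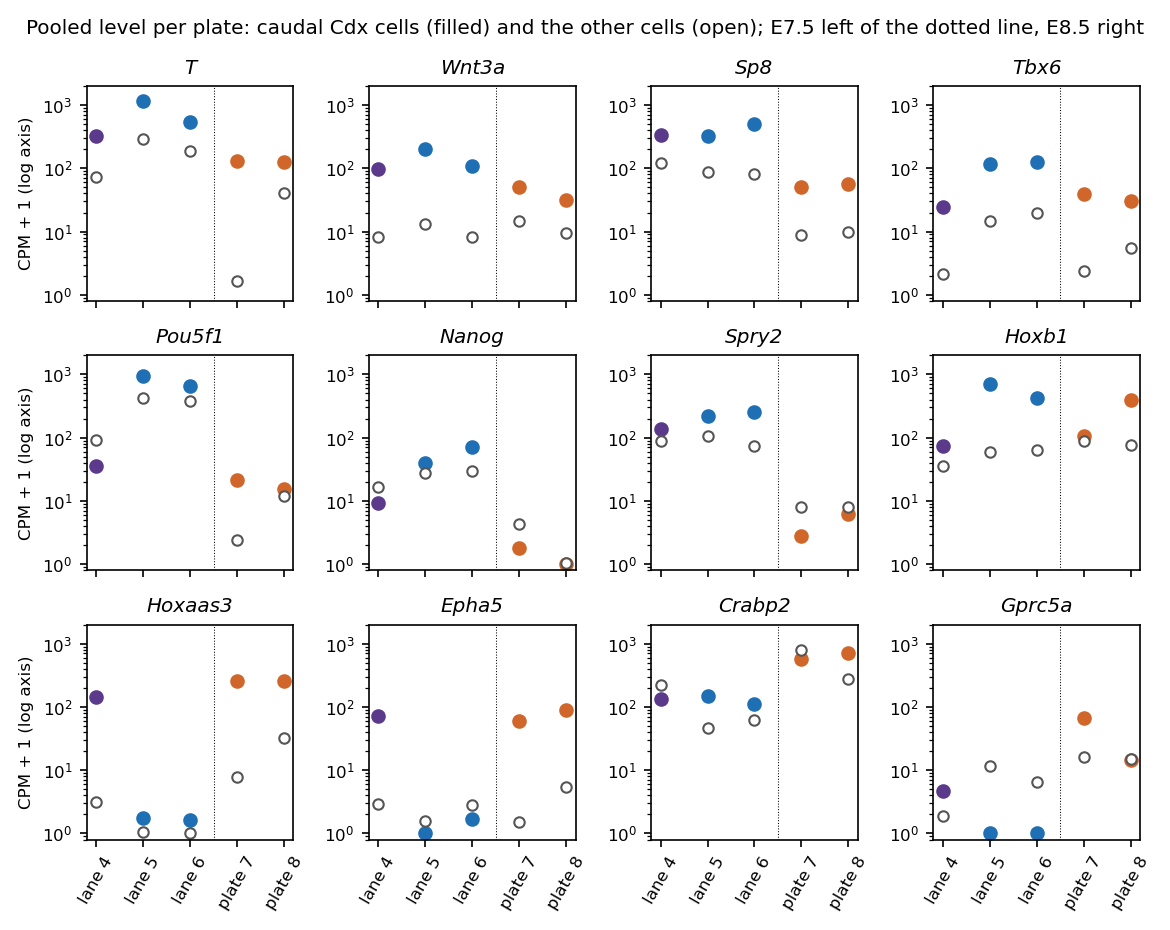
Pooled level of 12 genes on the 5 plates with at least 5 members, as CPM + 1 on a log axis, for caudal Cdx cells (filled) and the other cells of the plate (open). *T*, *Sp8* and *Spry2* separate E7.5 from E8.5 plates in members, whereas *Pou5f1*, *Hoxaas3* and *Epha5* in lane plate 4 (purple) lie nearer to the E8.5 plates than to lane plates 5 and 6.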

How the data were processed

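RNA of single sorted mouse cells was read by Smart-seq2, and only RNA was analysed here. By the paper, 768 cells went through scNMT-seq or scM&T-seq, in which DNA methylation of the same cell is also read. A further 1056 had RNA read alone. These numbers equal the 768 wells at E8.5 and the 1056 at E7.5, so this difference in method may coincide with stage. Its part in the stage differences was not tested. The authors deposited raw counts per gene (55487 genes, 1824 cells), made with HISAT2 2.1.0 and featureCounts on GRCm38 per the labels; strand and multi-mapping settings are not given in the sources used here. Each GEO sample is 1 cell. Cells with at least 100000 reads were kept (median of all wells 611135 reads), no doublet caller was run, and no deposited column lacked a sample (0). Counts were summed over members and over other cells and scaled to CPM. RPKM used GENCODE M21 exon lengths. Genes with 10 CPM in either group were compared by the log2 ratio with a pseudocount of 1 CPM, and a ratio of 1 or more counted as higher or lower. No replicate animals are labelled across both stages, so no test was made. Intervals are exact Poisson (CPM) or Clopper-Pearson (shares) at 95%. Named genes were those of the lists and, per comparison, the top 10 and bottom 10 ratios of genes at 20 CPM or more that had the same sign within each plate with 5 members or, between stages, with plates that did not overlap; *Gm*, *Rik*, *-ps*, *mt-* and rule genes were left out, and some genes the rule names are not reported here. The members and gene lists were chosen with earlier results of these data known. Python 3.11.15, pandas 2.3.3, edgeR 4.0.16 and DESeq2 1.42.0 (scaling factors of pooled sums only) were used. Only the pooled log2 ratio and its calls were tested on simulated data, which held no differences between plates. Alternatives were other thresholds, depths, scalings, pseudocounts and the leaving out of each plate.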

Additional observations from a re-analysis of the deposited data

Results flagged for a closer look

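Among the 4 E7.5 plates labelled with an embryo, embryo 4 held 0 caudal Cdx cells of 91 (0%, exact 95% interval 0 to 3.97), against 1 each in embryos 1, 2 and 5 (1.09%, 1.06% and 1.14%). Its gap to the nearest embryo was 0.936 of the whole range, past Dixon's critical value for 4 samples. For continuous values chance alone picks out about 1 in 20 such groups. That rate does not hold for counts of 0 or 1 cell, where nearly any split with 1 embryo apart passes the limit. The difference is 1 cell per embryo, and nothing is read from it.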

How the results depend on the processing

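Of 5056 alternative values of single genes and list medians, 4687 kept their level, the rest moved, and 11 of these changed sign. Genes were judged by their spread between plates and list medians by a fixed limit. In 2774 of the 5056, 1 plate was left out. Leaving out a plate of 1 stage cannot change members over other cells at the other stage, so the 4687 include values that could not move. Among shares of cells and genes, 14 alternative values moved by over 1.5 times. Without the *Hand1* limit members made up 6.49% of cells (6.80% at E7.5). With the mean of plate CPM 5.22% of genes were higher in E8.5 members. Without a CPM minimum 3.84% and 4.74% of 39817 genes were higher and lower at E7.5 (1528 and 1888 genes), and 5.78% and 7.73% of 33805 at E8.5 (1955 and 2613 genes), while between stages 2406 and 3116 genes were. With a minimum of 50 CPM 3.64% and 3.71% of 4664 genes were higher and lower for E7.5 members, 8.38% of 4952 were lower for E8.5 members, and 7.59% of 4915 were higher between stages; these settings change by construction how many genes were compared. Leaving out 1 plate at a time gave members in 3.26% to 4.24% of cells, 2.63% to 4.41% at E7.5 (lowest without lane plate 6), and 2.31% to 4.66% at E8.5 (2.64% without plate 7, lowest without plate 8), and 5 to 7 members with *T* and *Sox2*. Genes higher and lower then ran from 5.91% to 8.55% and 6.93% to 10.7% in E7.5 members, 8.497% to 15.1% and 12.4% to 16.5% in E8.5 members, and 11.2% to 15.99% and 12.7% to 15.7% between stages.

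Leaving out plates moved the E7.5 log2 ratio of *Hoxc9* from −0.019 (without lane plate 4) to 3.37, and the stage log2 ratio of *Aldh1a2* from −2.67 to 0.054 and of *Tbx6* from −1.67 to 0.12 (both highest without lane plate 6), and of *Hoxa9* from −0.057 (without plate 7) to 2.30. Without lane plate 4 the E7.5 neural median was −0.52. With the mean of plate CPM the neural medians were −0.27 for E7.5 and −0.34 for E8.5. In E8.5 members over other cells the pluripotency median of 1.48 became −0.17 without a CPM minimum. Against other cells of both stages it became −3.14, the streak median went from 3.15 to −2.005 and *Pou5f1* from 3.22 to −2.29. The cause was not tested. The comparisons of lane plate 4 alone were added after seeing the data. No paired analysis was possible because each sample is 1 cell, no test was made, and the stages share no labelled animal or batch; members and other cells do share plates, and the report gives within-plate ratios for *T*.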
